A study of Mus musculus with 6 samples.

Results

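Ubiquitin ligases are the enzymes that choose which protein is tagged with ubiquitin and sent to the proteasome or to another fate. A set of 10 of them known from wasting muscle was followed here by symbol: Trim63, Fbxo32, Fbxo30, Fbxo31, Fbxo21, Fbxo40, Nedd4, Traf6, Trim32 and Cblb. Every array probe that the platform annotation assigned to 1 of these symbols was a member, which gave 19 probes for 9 of the 10 genes among 25697 probes for 16593 genes on the array. For Cblb, 0 probes were found by symbol and 0 by Entrez gene number, and its mRNA was not analysed here.

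Gene expression was measured in whole gastrocnemius, the large calf muscle, of adult male mice aged 12 weeks whose strain is not given in the sources used here. The 3 denervated samples were the muscle of the left leg, 14 days after a piece of the sciatic nerve had been cut out. The 3 control samples were the muscle of the right leg, whose nerve was left in place, so that the controls came from operated animals and not from untouched mice. Both legs of 1 mouse may be among the samples, but no label pairs them. The main test therefore took the 6 samples as unpaired. The number of mice is not given, and where nothing ties a sample to its own animal, a p-value speaks only of the spread among the 6 samples measured. Each sample was hybridized to 1 Illumina mouse bead array, and all 6 arrays lay on 1 chip with denervated and control samples in separate stretches of positions, so that chip position and denervation cannot be told apart.

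In a muscle fibre that loses its nerve, protein breakdown by the ubiquitin-proteasome system outruns synthesis and the fibre shrinks. A ligase of the RING type, such as Trim63, Trim32, Traf6 or Cblb, brings a ubiquitin-loaded E2 enzyme to the substrate. An F-box protein is instead the exchangeable substrate receptor of a larger SCF ligase built on Skp1, Cul1 and Rbx1, and Nedd4 is a HECT ligase that carries ubiquitin itself before passing it on. Foxo transcription factors, which insulin and Igf1 signaling hold in check through Akt, and myogenin, a transcription factor that is induced when the nerve is lost, are known activators of Trim63 and Fbxo32 in mouse muscle.

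Denervated muscle held more mRNA for 4 of the 9 measured ligases and less for 2. Trim63 was 4.64-fold higher, Fbxo32 2.61-fold, Fbxo30 1.85-fold and Fbxo31 1.43-fold higher than in control muscle, while Traf6 was 1.49-fold lower and Trim32 1.30-fold lower. Fbxo21, Fbxo40 and Nedd4 did not pass the test, a moderated linear model in limma fitted to every kept probe, whose p-values were adjusted by the Benjamini-Hochberg method and called under 0.05. The smallest of these calls, Trim32, had an adjusted p of 0.0237 in limma. A probe was kept when it was above the negative control beads (detection p under 0.05) on at least 3 of 6 arrays. Where a gene had several, the brightest on average over the 6 arrays stands for it, and changes are given on the log2 scale, denervated minus control. Of the 19 ligase probes 17 were kept, and the 9 genes each had at least 1 of them. In whole muscle, fewer cells of a type and less RNA per cell cannot be told apart.

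These counts stand against a broad response. Over all 8740 genes with a kept probe, 22.2% were called higher and 21.6% lower in denervated muscle, together 43.8%, with a median log2 change of -0.0033. The 9 ligase genes had a median of 0.26. The denervated and control values did not overlap in 7 of 9 ligase genes, against 55.0% of all genes. Among kept probes, 6 ligase probes were higher, 2 were lower and 9 were not called, where 42.9% of all kept probes were called in either direction. Being called was therefore common on these arrays, and the ligases differed from each other in the direction and the size of the change. Trim63 ranked 94 and Fbxo32 270 from the top of the 8740 genes, Fbxo30 ranked 668, and Fbxo31 ranked 1516. Fbxo40 ranked 2636, Nedd4 3431, Trim32 6699, Fbxo21 6760 and Traf6 7500.

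**Figure D1:**
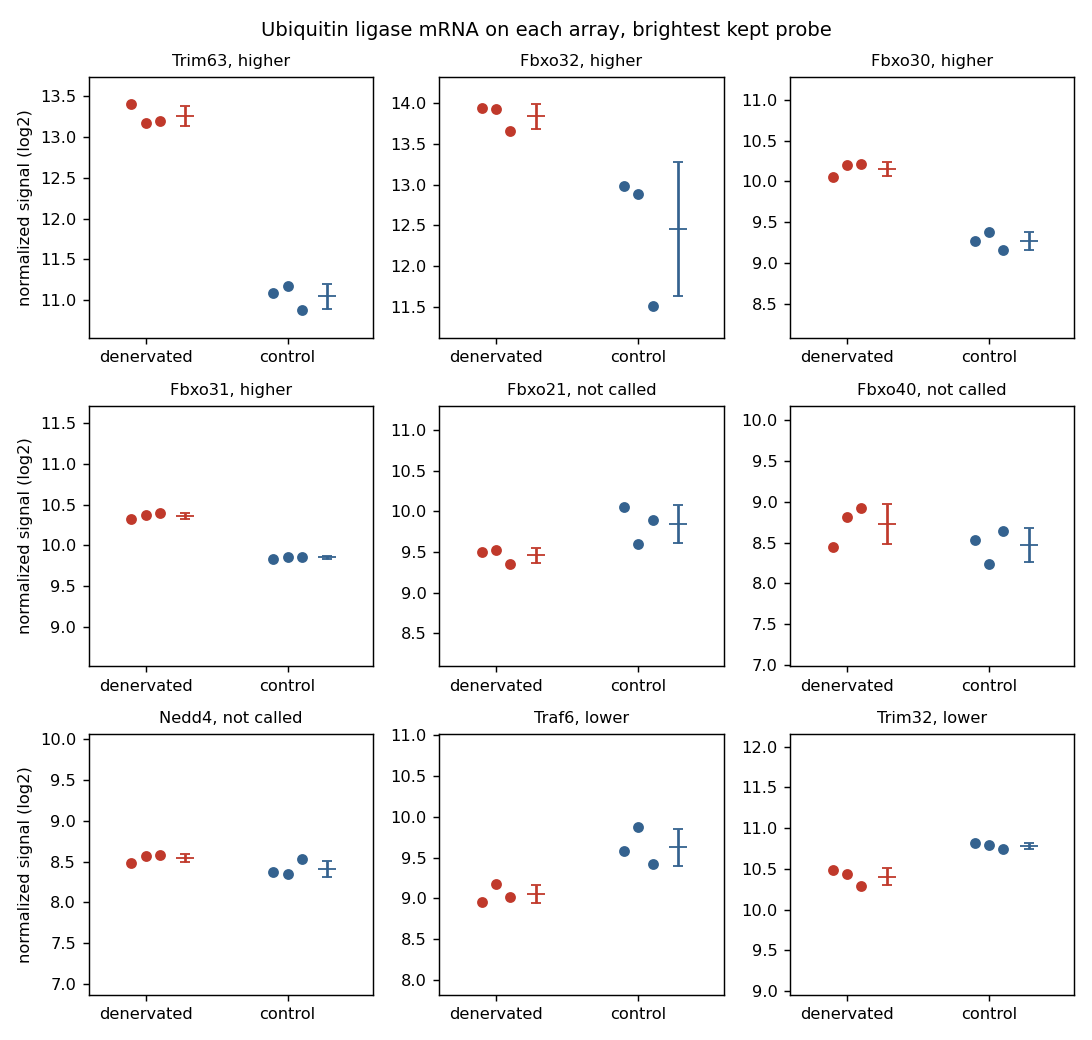
Normalized signal (log2, vertical axes, each panel spanning an equal range) of the brightest kept probe of each of the 9 ligases. Points are single arrays, denervated left of control, and bars give the mean and SD of 3 arrays. Trim63 sits between 13.17 and 13.40 in denervated muscle and between 10.88 and 11.17 in control muscle, and Fbxo32 has 1 control array, at 11.51, far below the other two.

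Between 11551 and 12785 probes per array were above background, and log2 values of samples of 1 group correlated at 0.988 to 0.994 across probes. The upper signal range differed by group: the 95th percentile of the raw signal lay between 4000 and 4048 in denervated samples and between 2897 and 3022 in control samples. Raw intensities are therefore given beside the normalized values where the choice of scaling matters. The mRNA of cell type markers differed too, and whether cell number or RNA per cell had changed was not tested. All 10 measured macrophage and leukocyte markers were higher in denervated muscle (median log2 change 1.29, summed normalized level 11923 to 14993 in denervated and 5071 to 5390 in control samples), 6 of 8 endothelial markers were lower (-0.51, summed level 9907 to 10564 against 12443 to 15898), and 3 of 4 Schwann cell markers were lower and 1 higher (-2.20, summed level 2571 to 3183 against 5351 to 13025). The leukocyte markers Ptprc, Itgam and Fcer1g had probes that were not kept, and none of the 9 lymphocyte markers on the array was kept. Of 13 skeletal muscle identity genes 2 were higher and 2 lower (-0.01, summed level 549798 to 560441 against 541999 to 573461) under quantile normalization, with 9 lower when arrays were scaled to the median of their detected probes, and the brightest probes of the muscle fibre genes Ckm, Acta1 and Actn3 were near the scanner's ceiling on every array. The endothelial count was 0 when arrays were scaled to 1 median over all probes, and 3 without denervated sample 3 or without control sample 2. It was 2 when each probe was tested by its own variance alone. Of 9 fibroblast markers 3 were higher and 1 lower (-0.01). Of 3 measured satellite cell markers 2 were higher and 1 lower (0.47), while Pax7, Myf5 and Calcr had probes that were not kept. Of 3 erythrocyte markers 0 were higher and 1 lower (-1.23, summed level 26385 to 76486 against 70299 to 79799), a count that moved under 17 of 18 alternative settings. The part of these cell types in the ligase results was not tested.

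Trim63, also called MuRF1, sits in the sarcomere and ubiquitinates myosin-associated proteins of the thick filament. Its single probe (ILMN_3161060) read 13.40, 13.17 and 13.20 (log2) in denervated samples 1 to 3, against 11.09, 11.17 and 10.88 in control samples 1 to 3. The groups were 2.00 apart at their nearest arrays, many times the SD within a group (0.12 in denervated and 0.15 in control samples, n = 3 each). The log2 change was 2.21 ± 0.13 (SE), with a 95% interval of 1.92 to 2.51 and an adjusted p of 4.22e-06 in limma. The raw intensity ran from 10746 to 12637 in denervated and from 1721 to 2022 in control samples, so that the rise was plain before any scaling. Of the 8740 genes, 1.06% had a larger positive change.

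The promoter of Trim63 is shown because Foxo factors and myogenic factors are its known activators. The window holds 250 bases before and 50 after the RefSeq transcription start (GRCm38.p6, chr4:134314870-134315169, plus strand), printed 5′ to 3′.
Trim63 promoter: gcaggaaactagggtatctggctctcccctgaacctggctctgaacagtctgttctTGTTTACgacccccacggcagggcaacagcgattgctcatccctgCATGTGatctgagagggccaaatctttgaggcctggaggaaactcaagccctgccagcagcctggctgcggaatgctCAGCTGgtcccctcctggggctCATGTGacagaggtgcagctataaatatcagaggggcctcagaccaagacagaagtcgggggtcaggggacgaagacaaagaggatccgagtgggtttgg
The capitals mark, from left to right, the Foxo motif TGTTTAC at position -194 from the start and the E-boxes CATGTG at -149, CAGCTG at -72 and CATGTG at -50. Both strands were searched for the Foxo motif (TGTTTAC or its reverse complement GTAAACA) and for the E-box CANNTG, the core that basic helix-loop-helix factors such as myogenin bind, of which CAGCTG is 1 form. RefSeq promoters were found for 9 of the 10 listed genes, all but Fbxo32 (11 promoters, since Fbxo40 and Nedd4 have 2 each). Trim63 had the Foxo motif and no other ligase promoter did, 1 of 11 against 3.65% of all 32851 promoters. An E-box was found in 7 of 11 ligase promoters against 72.31% of all promoters, and CAGCTG in 5 of 11 against 16.30%. Those with CAGCTG were of Trim63, Trim32, Nedd4 (1 of 2) and Fbxo40 (both), and of these genes only Trim63 was called higher. A match is a description of letters and not a bound site.

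Trim32 and Traf6, the other RING ligases with a probe, moved the other way and far less. Trim32 ubiquitinates desmin and thin filament proteins, and its loss causes a limb-girdle muscular dystrophy in humans. The brighter Trim32 probe (ILMN_2936199) read 10.49, 10.43 and 10.29 in denervated samples, against 10.81, 10.79 and 10.75 in control samples. The groups did not overlap, and the log2 change was -0.38 ± 0.11 (SE, adjusted p = 0.0237 in limma). The dimmer probe (ILMN_1238237) read 7.21, 7.26 and 7.22 in denervated samples, against 7.15, 7.53 and 7.15 in control samples, a change of -0.05 with an interval of -0.35 to 0.26 (adjusted p = 0.802 in limma). The 2 probes of Trim32 thus did not give the same answer, and their mean was not called (-0.21, adjusted p = 0.136 in limma). The raw intensity of the brighter probe was 1819, 1711 and 1604 in denervated samples 1 to 3, against 1608, 1558 and 1577 in control samples 1 to 3. Before normalization, denervated samples 1 and 2 thus lay above every control sample, and after it all denervated samples lay below the controls. The lower level in denervated muscle therefore appeared only after scaling. The call was also lost without denervated sample 2 (adjusted p = 0.0609), denervated sample 3 (0.0723), control sample 1 (0.059) or control sample 2 (0.0546) in limma.

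Traf6 builds chains that serve signaling more than degradation, passes cytokine receptor signals to NF-kappaB, and is needed for full denervation atrophy in mice. Its brightest probe (ILMN_2960750) read 8.96, 9.18 and 9.02 in denervated samples, against 9.58, 9.87 and 9.42 in control samples. All 3 denervated arrays lay below all 3 control arrays, with a log2 change of -0.57 ± 0.14 (SE, 95% interval -0.90 to -0.25, adjusted p = 0.0117 in limma). The second probe (ILMN_2427560) read 7.51, 7.42 and 6.92 in denervated samples, against 7.51, 7.48 and 7.79 in control samples. It gave -0.31 with an interval of -0.70 to 0.09 (adjusted p = 0.191 in limma), and only denervated sample 3 stood clearly below the controls. That interval includes both 0 and the change of the brightest probe. The last probe (ILMN_1259162) was close to background, with a change of 0.02 and values of 5.69 to 6.13 in denervated samples, against 5.64 to 6.07 in control samples. Raw intensities of the brightest probe overlapped, at 713 to 777 in denervated and 687 to 869 in control samples, and the call was lost when arrays were scaled to 1 median (-0.31, adjusted p = 0.113 in limma) or when each probe was tested by its own variance alone (adjusted p = 0.0522).

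**Figure D2:**
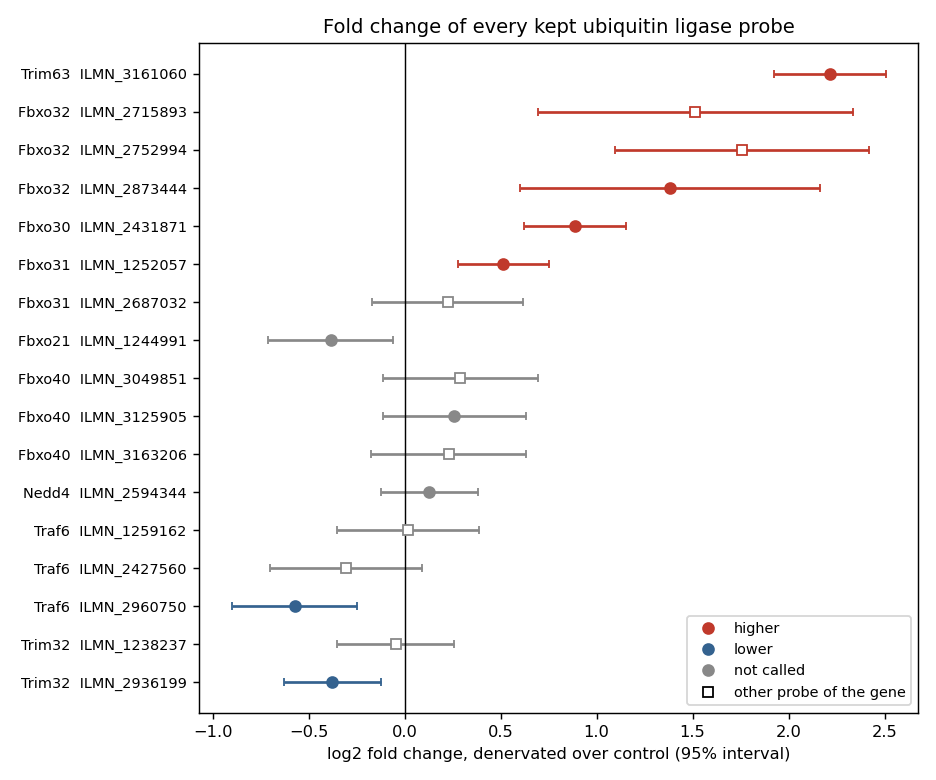
Log2 fold change of denervated over control (horizontal axis) for the 17 kept ligase probes, with 95% intervals from limma. Filled circles are the probes that represent a gene and open squares are its other probes. The 3 Fbxo32 probes all lie right of 0 and the 3 Fbxo40 probes all cross it, while Fbxo31, Traf6 and Trim32 each have 1 called probe and others whose intervals include 0.

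Of the F-box receptors, Fbxo32 changed most. Fbxo32, known as atrogin-1 or MAFbx, is a muscle-enriched receptor whose reported substrates include MyoD and the translation factor eIF3f, and mice that lack it lose less muscle after denervation. The brightest probe (ILMN_2873444) read 13.93, 13.92 and 13.66 in denervated samples, against 12.98, 12.88 and 11.51 in control samples. All denervated arrays were above all control arrays, but the control arrays differed among themselves (SD 0.82, against 0.15 in denervated samples). The log2 change was 1.38 ± 0.34 (SE), with a 95% interval of 0.60 to 2.17 and an adjusted p of 0.0114 in limma.

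The other Fbxo32 probes gave the same direction. Probe ILMN_2715893 read 12.83, 12.90 and 12.84 in denervated samples, against 12.09, 11.56 and 10.37 in control samples, a change of 1.51 ± 0.36 (SE, adjusted p = 0.00935 in limma). Probe ILMN_2752994 read 12.30, 12.42 and 12.77 in denervated samples, against 11.30, 10.90 and 10.03 in control samples, a change of 1.76 ± 0.29 (SE, adjusted p = 0.0015 in limma). Control sample 3 was the lowest array in all 3 probes, before normalization as well: raw intensities of the brightest probe were 17515, 17610 and 14746 in denervated samples, against 6880, 6324 and 2616 in control samples. The 3 probes thus shared that spread. Without control sample 3 the change of the brightest probe was 0.91 (adjusted p = 0.00224 in limma), and those of the others were 1.03 and 1.40, so the size of the Fbxo32 change depended on that sample while its direction did not. The call of the brightest probe was lost in limma with trend and robust estimation (adjusted p = 0.0774). Control sample 3 was the lowest of the control arrays in 8 of the 17 kept ligase probes, control sample 2 in 7 and control sample 1 in 2.

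**Figure D3:**
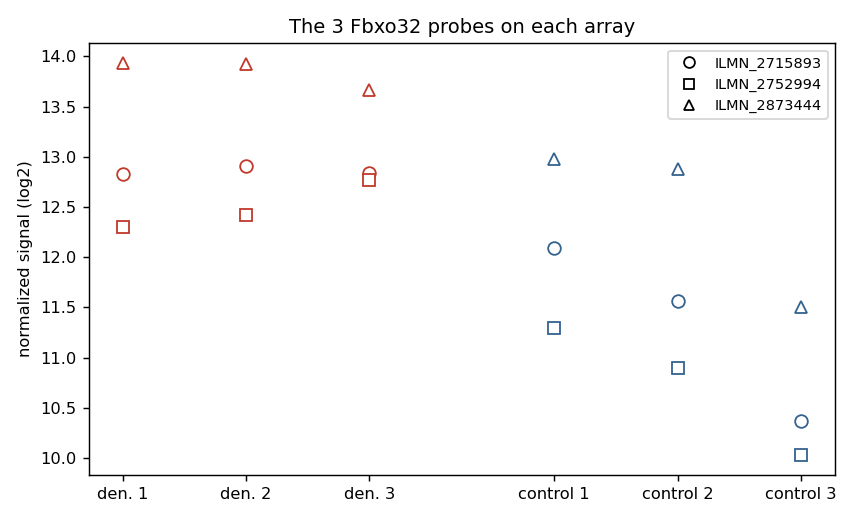
Normalized signal (log2, vertical axis) of the 3 Fbxo32 probes on each array, denervated samples left of control samples. The 3 probes fall together in control sample 3, to 11.51, 10.37 and 10.03.

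Fbxo30, known as MUSA1, is an SCF receptor that Bmp signaling keeps low in innervated mouse muscle. Its kept probe (ILMN_2431871) read 10.05, 10.20 and 10.21 in denervated samples, against 9.27, 9.38 and 9.16 in control samples. The groups stood well apart, with a log2 change of 0.89 ± 0.12 (SE, 95% interval 0.62 to 1.15, adjusted p = 0.000425 in limma) and raw intensities of 1379 to 1521 in denervated and 591 to 651 in control samples. A second Fbxo30 probe (ILMN_2861445) was above background on 0 arrays of either group, with raw intensities of 144 to 174 in denervated and 116 to 133 in control samples, and was not tested.

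Fbxo31 is an SCF receptor reported to direct the breakdown of cyclin D1, and it belongs to the Foxo-dependent ligases of mouse muscle. Its brighter probe (ILMN_1252057) read 10.32, 10.37 and 10.40 in denervated samples, against 9.83, 9.86 and 9.86 in control samples. This was the tightest of the ligases (SD 0.04 in denervated and 0.02 in control samples), so that a change of 0.51 ± 0.10 (SE) was clear of the spread (adjusted p = 0.0043 in limma). The second probe (ILMN_2687032) read 10.08, 10.22 and 9.67 in denervated samples, against 9.64, 10.003 and 9.66 in control samples. Those values overlapped, and the change of 0.22 was not called (adjusted p = 0.329 in limma). Its interval of -0.17 to 0.61 includes both 0 and the change of the brighter probe.

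Fbxo21, known as SMART, is another Foxo-dependent receptor, and its knockdown in mice protects muscle from denervation atrophy. Its probe (ILMN_1244991) read 9.51, 9.52 and 9.35 in denervated samples, against 10.05, 9.59 and 9.89 in control samples. The denervated values were the lower ones without overlap, but the nearest arrays were 0.07 apart. The log2 change of -0.39 ± 0.14 (SE, 95% interval -0.71 to -0.06) did not pass (adjusted p = 0.056 in limma), and raw intensities overlapped, at 885 to 978 in denervated and 736 to 979 in control samples. It passed under 9 of 18 alternative settings, among them the fit without control sample 2 (-0.51, adjusted p = 0.0197 in limma).

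Fbxo40 is found almost only in muscle and takes part in the breakdown of Irs1, the adaptor of the insulin and Igf1 receptors. Its brightest probe (ILMN_3125905) read 8.45, 8.81 and 8.93 in denervated samples, against 8.53, 8.24 and 8.64 in control samples. The groups overlapped in this probe and in both others, with changes of 0.26, 0.29 and 0.23 (adjusted p = 0.237, 0.220 and 0.332 in limma) and an interval of -0.11 to 0.63 for the brightest. The 3 probes gave nearly the same small change, and none of them was called. Of the 2 promoters of Fbxo40, 1 (GRCm38.p6, chr16:36990418-36990717, minus strand, same window, 5′ to 3′) is shown beside that of Trim63. It holds 4 E-boxes and the other holds 2, and it was chosen with the fold changes known. Whether E-boxes bear on the mRNA of either gene was not tested.
Fbxo40 promoter: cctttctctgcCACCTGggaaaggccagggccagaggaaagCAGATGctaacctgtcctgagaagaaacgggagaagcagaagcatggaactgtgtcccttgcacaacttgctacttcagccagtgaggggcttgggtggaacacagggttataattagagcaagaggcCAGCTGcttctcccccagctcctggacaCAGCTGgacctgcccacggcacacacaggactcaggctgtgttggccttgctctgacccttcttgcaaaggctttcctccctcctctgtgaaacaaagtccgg
The capitals mark the E-boxes CACCTG at -239, CAGATG at -209 and CAGCTG at -81 and -53 from the start, and no Foxo motif was found in this window.

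Nedd4, a HECT ligase with many membrane receptors and channels among its substrates, had 1 kept probe (ILMN_2594344). It read 8.48, 8.56 and 8.58 in denervated samples, against 8.37, 8.34 and 8.53 in control samples. The denervated values were high among the 6, but the groups overlapped, and the change of 0.13 ± 0.11 (SE, adjusted p = 0.387 in limma) had an interval of -0.13 to 0.38. The other Nedd4 probe (ILMN_2725991) was above background on 0 arrays and was not tested.

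The 2 lower calls and the 3 ligases without a call each changed sides of the threshold under at least 1 other scaling of the arrays, and the 4 higher calls under none of those tried. Scaling each array to 1 median over all probes, in place of quantile normalization, moved the median of all genes to 0.20 and the share of calls that were higher to 73.17%, against 50.59%. Under that scaling Fbxo40 (0.53, adjusted p = 0.0237 in limma) and Nedd4 (0.39, adjusted p = 0.033 in limma) were called higher, Traf6 and Trim32 (-0.13) were not called, and 6 ligases were higher and 0 lower. When that median was taken over detected probes only (above background on every array), a choice made once the data were known, 43.88% of calls were higher, and 4 ligases were higher and 3 lower. Trim63, Fbxo32, Fbxo30 and Fbxo31 were higher under each of these scalings.

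**Figure D4:**
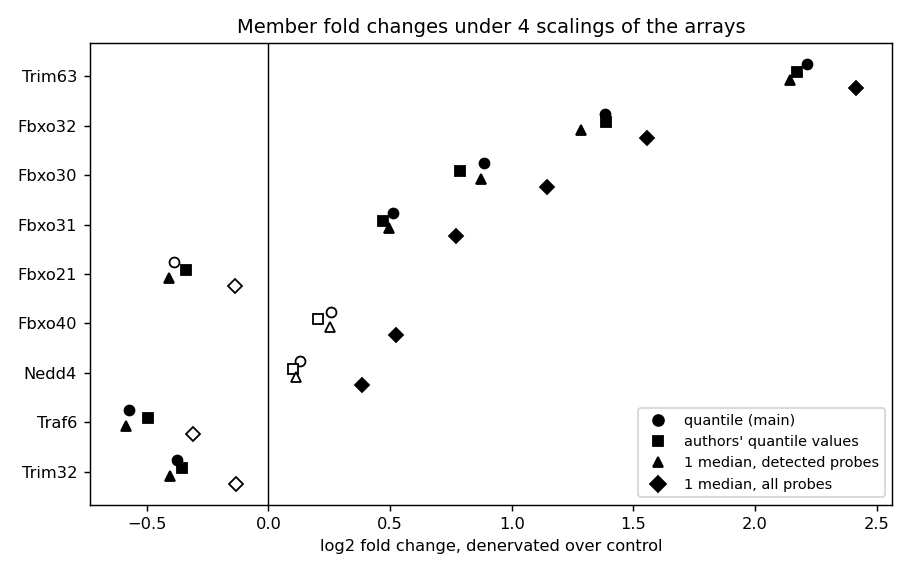
Log2 fold change of denervated over control (horizontal axis) for the 9 ligases under 4 scalings of the arrays, with 1 marker shape for each scaling. Filled markers passed the test and open markers did not. The scaling to 1 median over all probes lies to the right of the other three for every ligase, with Trim63 at 2.41 there and at 2.21 under quantile normalization.

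Measured were 8 genes of the SCF core and of the Nedd8 cycle that switches it on and off. Of these, 5 (62.5%) were called higher and 0 lower (median log2 change 0.35), against 22.2% and 21.6% of all genes. Cops5, the subunit of the COP9 signalosome that removes Nedd8, rose by 0.55 ± 0.13 (SE, adjusted p = 0.00808 in limma), and the scaffold Cul1 by 0.37 ± 0.12 (adjusted p = 0.0354 in limma), while Skp1 gave 0.15 (adjusted p = 0.373 in limma). The RING subunit Rbx1 rose by 0.44 in its brightest probe, but its other probe fell by 1.26, so the gene has no single direction here. The count depended on single samples: it was 1 without denervated sample 1, 2 without denervated sample 2, denervated sample 3 or control sample 2, and 3 without control sample 3. Of 7 measured E2 enzymes that work with such ligases, 4 (57.1%) were lower and 1 (14.3%) higher (median -0.43). The shares over all genes were 21.6% lower and 22.2% higher. Ube2n, the E2 with which Traf6 builds its signaling chains, read 9.10, 9.08 and 8.99 in denervated samples, against 10.81, 10.86 and 10.91 in control samples. It fell by 1.80 (SE 0.11, adjusted p = 4.86e-06 in limma), and its second probe fell by 0.57. The higher E2 was Ube2g1, which rose by 0.49 ± 0.15 (SE, adjusted p = 0.0264 in limma), with 0.50 and 0.42 in its other probes. Its call was lost when each probe was tested by its own variance alone and in each fit that left out 1 array, except the one without control sample 3. The other lower E2 calls, Ube2e1 (-0.49), Ube2d3 (-0.45) and Ube2j2 (-0.43), were small. The lower count was 1 under the all-probe median scaling, without denervated sample 2 or when each probe was tested by its own variance alone. It was 2 without denervated sample 1, control sample 1 or control sample 2.

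Of 13 further ligases known from muscle, 2 (15.4%) were higher and 4 (30.8%) lower (median -0.16), against 22.2% and 21.6% of all genes. Wwp1, a HECT ligase of the Nedd4 family, read 9.87, 9.70 and 10.11 in denervated samples, against 11.45, 11.35 and 11.58 in control samples, and fell by 1.57 (SE 0.14, adjusted p = 4.44e-05 in limma), whereas Nedd4 itself was not called. Mdm2, the ligase of p53, rose by 0.69 and by 0.93 in 2 probes, while a dim probe gave -0.31 (adjusted p = 0.2 in limma). Smurf2 rose by 0.62 and Mul1 fell by 0.45. The lower count was 1 under the all-probe median scaling, without denervated sample 2 or without control sample 2, and 2 without denervated sample 1. The higher count was 1 without denervated sample 1, denervated sample 3, control sample 1 or control sample 2. It was also 1 without the detection filter or when each probe was tested by its own variance alone.

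Other genes of the F-box and Trim families moved both ways, and no more often than all genes. Genes of these families that are also among the further muscle ligases above were counted in both places. Each way, 17.2% of F-box and 13.6% of Trim genes were called, against 22.2% higher and 21.6% lower of all genes. Of 29 other measured F-box genes, 5 were higher and 5 lower (median -0.09), with the largest changes in Fbxl13 (1.13), Fbxw17 (1.06), Fbxo9 (-1.04) and Fbxo7 (0.82). Of 22 other measured Trim genes, 3 were higher and 3 lower (median 0.03), led by Trim44 (1.15), Trim46 (-1.12), Trim11 (0.70) and Trim8 (0.69). When arrays were scaled to 1 median over all probes, 9 F-box genes were higher and 1 lower, and 8 Trim genes were higher and 1 lower. The lower F-box count was 2 without denervated sample 2, denervated sample 3 or control sample 1, and 3 without control sample 2, control sample 3 or the detection filter. The lower Trim count was 1 without denervated sample 2. When each probe was tested by its own variance alone, the higher counts were 3 F-box genes and 1 Trim gene.

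Of 17 measured upstream regulators of these ligases, 9 (52.9%) were higher and 3 (17.6%) lower (median 0.53), against 22.2% and 21.6% of all genes. Myogenin (Myog) read 10.40, 10.49 and 9.79 in denervated samples, against 7.06, 7.26 and 5.92 in control samples, and rose by 3.48 ± 0.34 (SE, adjusted p = 7.56e-05 in limma), with 1.08 in a second, dimmer probe. Hdac4, a deacetylase upstream of myogenin in denervated muscle, rose by 2.45 ± 0.14 (adjusted p = 3.61e-06 in limma). Tnfrsf12a, the receptor of the cytokine Tweak, rose by 2.22, and Myod1 by 2.05. Foxo1, named here after its value had been seen, read 9.65, 9.26 and 9.18 in denervated samples, against 8.67, 8.53 and 8.35 in control samples, and rose by 0.85 ± 0.16 (adjusted p = 0.00254 in limma). The 3 lower regulators were Ppargc1a (-1.30, SE 0.19, adjusted p = 0.000773 in limma), Hdac5 (-0.70) and Tab2 (-0.49). Foxo3, Foxo4 and Foxo6 had probes that were not kept. Control sample 3, the lowest array for Fbxo32, was also the lowest control array for Myog, Hdac4, Myod1, Foxo1 and Smad3. It was not the lowest for Tnfrsf12a, at 9.28, 10.44 and 9.79 in control samples 1 to 3, or for Rela. For Mef2c (12.47, 12.36 and 12.77 in its brightest probe) and Map3k7 (7.08, 6.96 and 7.25) it was the highest control array. Only the 9 regulators called higher were looked at in this way. How often control sample 3 was lowest over all genes was not counted, and a link to Fbxo32 was not tested.

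Of 24 reported ligase substrates measured as mRNA, 5 (20.8%) were higher and 4 (16.7%) lower (median -0.01), against 22.2% and 21.6% of all genes. The brightest probe of 6 of the 24 (Acta1, Mylpf, Myl1, Actn3, Ckm and Tnni2) lay above a raw signal of 60000 on every array. That is near the ceiling of the scanner, where a change of that probe cannot be read. Myl1 had a dimmer probe that read 14.02, 13.71 and 13.93 in denervated samples, against 14.71, 14.40 and 14.79 in control samples, and fell by 0.75 (SE 0.14, adjusted p = 0.00333 in limma). The dimmer probes of Actn3 gave -0.32 and -0.11 (adjusted p = 0.0511 and 0.456 in limma). Myod1, a substrate of Fbxo32 in cultured cells and itself among the regulators above, rose by 2.05 and vimentin (Vim) by 1.02 ± 0.13 (SE, adjusted p = 0.000299 in limma). Smad3 rose by 0.90 and Pdlim7 fell by 0.96 (SE 0.13, adjusted p = 0.000618 in limma). The lower count was 11 with 1 median over the detected probes, and 2 with 1 median over all probes, without denervated sample 3 or without control sample 2. These are mRNA levels, and the amounts of the substrate proteins were not measured.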

How the data were processed

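Total RNA of 3 denervated and 3 control gastrocnemius samples was amplified into biotin-labelled cRNA and hybridized to Illumina mouse bead arrays, which the authors summarized in GenomeStudio. The deposited table gave for each probe an intensity (linear signal averaged over beads, not normalized), its standard error, a count of beads and a detection p-value against the negative control beads. The authors' own quantile-normalized intensities, in a further deposited table, served as an alternative. All sample columns were used (0 left out). Groups came from the sample labels.

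Background was corrected by the normal-exponential method (from detection p, offset 16), and values were quantile-normalized and log2-transformed (limma 3.58.1, R 4.3.3). The offset understates the change of dim probes. Probes were kept at a detection p under 0.05 on at least 3 of 6 arrays (12546 of 25697). Gene symbols came from the platform annotation, which named 1 gene for 23978 probes, several for 0 and none for 1719. By Entrez number 23962 probes were matched to the RefSeq gene table, and 0 symbols changed. Denervated and control samples were compared with lmFit and eBayes, with Benjamini-Hochberg adjustment over all kept probes. The code was tested on simulated data. Ligase signals rested on 23 to 60 beads per array, with bead standard errors of 3.29% to 9.43% of the signal (median 5.91%). The number of arrays limits the precision.

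The ligases and all gene lists were chosen with earlier results of these data known. Named genes were all listed ligases with every probe and, of each context list, up to 4 genes with the largest change among those called. Skp1, Foxo1, Ube2j2, Mef2c, Map3k7, Rela, Ppargc1a, Hdac5, Tab2 and the genes near the scanner's ceiling fell outside that rule. They were named with their values known. Of the ubiquitin and E1 genes listed, only Uba6 had a probe, which was not kept. The alternatives were other background corrections, offsets, scalings, filters, tests and probe summaries, the replicate number as a block, and leaving out each array. Promoter sequences were those of RefSeq on GRCm38.p6, used for letters only.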

Additional observations from a re-analysis of the deposited data

How the results depend on the processing

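Over 18 alternatives, 17 planned and 1 added after seeing the data, the 17 kept ligase probes gave 296 values to compare. Of these, 267 kept their direction and their side of the threshold, 12 lost a call, 12 gained one and 5 changed sign. Trim63, Fbxo30 and Fbxo31 kept their call in all 18 (log2 changes of 2.13 to 2.41, 0.77 to 1.15 and 0.37 to 0.77), and the Fbxo32 probe ILMN_2752994 in all 17 that it entered. The brightest Fbxo32 probe lost its call in a test of each probe by its own variance (adjusted p = 0.103) and in limma with trend and robust estimation (adjusted p = 0.0774). Scaled to 1 median per array over all probes, 3044 genes were higher and 1116 lower, and 0 ligases were lower. The lower ligases numbered 1 in the test of each probe by its own variance, and 1 to 2 when 1 array was left out. Leaving out 1 array gave 2993 to 3449 called genes. The ligase values that changed sign belonged to the dim Traf6 probe ILMN_1259162 and the dimmer Trim32 probe ILMN_1238237, and none of them was called. The Traf6 probe gave -0.18 with 1 median over detected probes, -0.087 without denervated sample 3 and -0.12 without control sample 2 (-0.12 to 0.13 over all arrays left out in turn). The Trim32 probe gave 0.18 with 1 median per array and 0.079 without control sample 2 (-0.11 to 0.079 over all arrays left out in turn). Outside the ligases, the SCF core gene Rbx1 also changed sign, to -0.41 as the mean of its probes, and was called lower there. The causes were not tested.

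With the replicate number as a block, 3794 genes were called against 3829 without this replicate block, and no ligase call changed. The labels do not say that a number marks a mouse, and the deviations of samples with the same number correlated at -0.02, 0.16 and 0.16 across probes. Of 6 samples, 4 correlated best with the sample of their own number. The depth of an array is its signal over background: the dim probes of Traf6, Fbxo30 and Nedd4 lay at or near background and limit what can be said of them.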
